A study of Mus musculus with 16 samples.

Results

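Peroxisomal fatty acid oxidation was followed through 8 genes of adipose tissue, matched by symbol in the deposited expression matrix out of 17883 genes. They encode the transporters Abcd2 and Abcd3, the enzymes Ehhadh, Hsd17b4, Acaa1a and Acaa1b, the peroxisome division factor Pex11a and the carnitine acetyltransferase Crat. The study asked how METTL3, the enzyme that writes N6-methyladenosine (m6A) onto mRNA, bears on the beiging of white fat in the cold. Its 16 libraries form 8 groups of 2: input RNA, RNA captured with an m6A antibody (m6A libraries), and, for the cold groups, ribosome-protected fragments (footprints). All mice were 8-week-old C57BL/6 animals with the METTL3 flox/flox genotype, so the controls carry the floxed allele too. The wild-type (WT) groups have no Cre and were either untreated (room temperature, RT) or housed singly at 4 °C for 7 days (cold). The third group is METTL3 flox/flox with Adipoq-Cre +/-, kept in the cold (cKO cold). Adipoq-Cre acts in adipocytes, so other cells of the tissue keep the intact gene, and a knockout at room temperature was not analysed here. The labels do not name the fat depot or say whether replicates came from separate mice, so each p-value measures the spread between libraries.

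Peroxisomes shorten very long-chain, branched and dicarboxylic fatty acids that mitochondria handle poorly. ABCD transporters bring the acyl-CoA esters in, an oxidase starts each round, a bifunctional enzyme (Ehhadh or Hsd17b4) carries out the next steps, and a thiolase (Acaa1a or Acaa1b) releases acetyl-CoA. Crat turns short acyl-CoA into acylcarnitine that can leave the organelle, and Pex11a promotes peroxisome elongation and division. Many of these genes are known targets of the nuclear receptor PPAR alpha, and cold-exposed brown and beige fat is known to increase its peroxisomes.

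The sequence upstream of the gene start is shown for Ehhadh and Acaa1b, whose mRNAs had the 2 largest rises in the cold and the 2 largest falls in cKO cold among the 8 genes. Both lie on the minus strand in GRCm38.p6, and the letters are from RefSeq, 5′ to 3′, with each CCAAT or its reverse complement ATTGG in capitals. The Ehhadh window is chr16:21787835-21788084, the 250 bases before the start, with 60.4% G or C and 1 such box. The Acaa1b window is chr9:119157094-119157343, of the same length, with 41.6% G or C and 2 boxes.
Ehhadh: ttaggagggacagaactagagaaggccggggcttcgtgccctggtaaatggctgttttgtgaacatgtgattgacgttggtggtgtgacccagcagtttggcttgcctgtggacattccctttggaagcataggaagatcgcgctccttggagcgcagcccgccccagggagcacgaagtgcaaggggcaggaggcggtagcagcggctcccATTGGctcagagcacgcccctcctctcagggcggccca
Acaa1b: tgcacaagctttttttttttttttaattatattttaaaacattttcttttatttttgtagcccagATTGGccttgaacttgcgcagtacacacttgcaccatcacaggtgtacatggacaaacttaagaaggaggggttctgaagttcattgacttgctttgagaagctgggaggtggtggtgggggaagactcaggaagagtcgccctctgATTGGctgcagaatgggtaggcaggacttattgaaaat
The search covered 6 windows of 5 of the 8 genes. Abcd2 and Crat had no usable upstream sequence, and Hsd17b4 was left out by choice, so the counts do not cover these genes. A CCAAT box on either strand was present in 3 of the 6 windows, against 33.8% of 32817 windows of the same length. One Abcd3 window and the Acaa1a window lie inside the annotated gene, before an inner start, and 2 of the other 4 windows held the box. The PPAR response element (a direct repeat of AGGTCA spaced by 1 base, searched on both strands with up to 3 mismatches) was in 0 of the 6 windows, against 21.3% of all windows, and AGGTCA alone, which overlaps that element, was in 0 of 6 against 14%. These are descriptions of the letters in short windows only.

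The 16 libraries held between 1676208 and 8673393 reads assigned to genes, recovered from the steps of the RPKM values (read counts scaled to gene length and library total); for footprints this number is a lower bound. Mettl3 itself had input RPKM values of 10.8 and 9.27 (WT RT), 5.24 and 3.66 (WT cold), and 3.83 and 1.90 (labelled cKO cold), so the cold groups overlapped. In footprints the libraries labelled cKO were higher (8.99 and 5.22) than WT cold (4.60 and 4.82), against the label. The values cover the whole gene and the labels do not give the deleted exons, so this does not check the deletion, and every knockout direction below rests on the label alone. Ucp1, the uncoupling protein of beige and brown fat, had input RPKM values of 2.13 and 9.91 (WT RT), 854 and 639 (WT cold), and 76.3 and 10.04 (cKO cold). None of the 10 adipocyte markers was at 0 in any group, and their summed input RPKM was 6387 to 6643 (WT RT), 13496 to 13971 (WT cold) and 11583 to 13488 (cKO cold). The 10 T and B cell markers summed to 673 to 714 input RPKM (WT RT), 1.30 to 1.48 (WT cold, with 2 at 0) and 5.73 to 7.74 (cKO cold). The 10 macrophage markers summed to 732 to 821, 143 to 150 and 596 to 1301 RPKM, and the 10 fibroblast and preadipocyte markers to 2134 to 2175, 576 to 794 and 1424 to 2972, in the same order of groups. The 8 endothelial markers summed to 277 to 289, 216 to 226 and 260 to 329 RPKM, and the 10 skeletal muscle markers to 10.8 to 304, 0.813 to 7.72 and 5.74 to 170, with 5 muscle markers at 0 in WT cold. The 8 liver markers were led by Cyp2e1, which adipose tissue also makes, and 2, 2 and 4 of them were at 0 in both inputs of the groups. The 7 others summed to 5.53 and 4.85 (WT RT), 19.3 and 17.2 (WT cold), and 7.25 and 15.7 (cKO cold) input RPKM, so they were highest in WT cold, where Ehhadh, Acaa1b, Abcd3 and Crat were highest too. Alb, the albumin gene of hepatocytes, rose by 1.51 ± 0.25 in the cold (adjusted p = 0.00274, limma) and fell by 1.14 ± 0.25 in cKO cold (adjusted p = 0.0206). Serpina1a, another gene of this list, was called in neither comparison. It was higher by 2.19 ± 0.46 in cKO cold against WT RT (adjusted p = 0.0125, limma), so the liver markers did not all follow Alb. In bulk tissue, fewer cells of a type and less RNA per cell cannot be told apart, and the part of these shifts in the results below was not tested. The library codes of the WT RT samples come from another number series than those of the cold samples, so temperature and library series cannot be told apart.

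In the cold, mRNA of 7 of the 8 genes rose in WT tissue. Ehhadh, Acaa1b and Abcd3 rose most, Hsd17b4 and Crat came next (2.34-fold and 2.06-fold on this scale), and Pex11a and Abcd2 rose least. Acaa1a fell, and its direction depended on how libraries were scaled. All 8 genes passed the filter on low values. Differences are given on the log2(RPKM + 1) scale with the standard error (SE) from limma, 2 libraries per group, and p-values are adjusted over all genes tested (Benjamini-Hochberg), with calls at an adjusted p under 0.05. Of 12667 genes tested, cold called 6.52% higher and 51.2% lower (826 and 6488 genes, or 2376 and 2592 with median-ratio scaling and 2806 and 2308 with quantile scaling). The median difference over all tested genes was -0.67, against 1.14 over the 8 genes. With median-ratio scaling the median of all genes became -0.06, and the members' median became 1.88.

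The transporters of the peroxisomal membrane were described first. Abcd3, which carries branched and dicarboxylic acyl-CoA, had input RPKM values of 15.1 and 17.0 (WT RT), 55.8 and 47.6 (WT cold), and 21.8 and 27.7 (cKO cold). The 3 groups did not overlap, with WT cold highest and WT RT lowest. It rose by 1.63 ± 0.17 in the cold (adjusted p = 0.000467, limma) and differed by -1.04 ± 0.17 between cKO cold and WT cold (adjusted p = 0.00982). Abcd2, which carries very long-chain and polyunsaturated acyl-CoA, was at 53.4 and 50.4, 75.3 and 72.8, and 72.5 and 86.3 RPKM in the same order. Both cold groups lay above WT RT and overlapped each other. Abcd2 rose by 0.51 ± 0.13 in the cold (adjusted p = 0.0157, limma), a call lost without either WT RT library (adjusted p = 0.0895 and 0.125), and its difference between cKO cold and WT cold was 0.09 ± 0.13 (adjusted p = 0.611).

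The bifunctional enzymes followed different patterns with the knockout label. Ehhadh had input RPKM values of 16.5 and 21.1 (WT RT), 66.0 and 123 (WT cold), and 19.998 and 22.9 (cKO cold). Its 2 WT cold libraries were far apart but both lay well above the other 4, which overlapped. Ehhadh rose by 2.21 ± 0.29 in the cold (adjusted p = 0.00104, limma) and fell by 2.02 ± 0.29 in cKO cold against WT cold (adjusted p = 0.00706). Hsd17b4, the enzyme of the branched-chain and bile acid branch, was at 48.0 and 48.3, 116 and 113, and 102 and 97.3 RPKM in the same order. Its cold libraries, with either genotype label, all lay well above WT RT. It rose by 1.23 ± 0.11 in the cold (adjusted p = 0.000277, limma), and its difference between cKO cold and WT cold was -0.19 ± 0.11 (adjusted p = 0.218), or -0.69 with median-ratio scaling (adjusted p = 0.0154).

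Acaa1a and Acaa1b are thiolase genes with near-identical coding sequences on chromosome 9, at 119341028 to 119350296 and 119148043 to 119157093 (RefSeq, GRCm38.p6), so reads may be split between them and both values are uncertain. Acaa1a had input RPKM values of 24.2 and 26.1 (WT RT), 16.6 and 19.9 (WT cold), and 22.8 and 23.0 (cKO cold). Its WT cold libraries were the lowest of the 6 and the groups did not overlap. The cold difference of Acaa1a was -0.45 ± 0.15 (adjusted p = 0.0361, limma), but 0.27 with median-ratio scaling and 0.18 with quantile scaling (adjusted p = 0.252 and 0.394), and leaving out either WT RT library or WT cold replicate 1 also ended the call. Between cKO cold and WT cold it was 0.32 ± 0.15 (adjusted p = 0.144). Acaa1b was at 1.91 and 3.52, 18.9 and 10.4, and 5.64 and 1.37 RPKM in the same order, and the last of these rests on 9 reads. WT cold lay above all 4 other libraries. Acaa1b rose by 2.05 ± 0.52 in the cold (adjusted p = 0.0145, limma), a call lost without WT RT replicate 1 or WT cold replicate 1 (adjusted p = 0.0744 and 0.0694). It fell by 1.92 ± 0.52 in cKO cold (adjusted p = 0.037), a call lost with a pseudocount of 0.1, with no filter, and without WT cold replicate 1, WT cold replicate 2 or cKO cold replicate 2, with adjusted p of 0.0539, 0.0792, 0.119, 0.0618 and 0.107.

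The balance within the thiolase pair shifted between groups. Acaa1b made up 7.30% and 11.9% of the summed input RPKM of both genes (WT RT), 53.3% and 34.3% (WT cold), and 19.9% and 5.61% (cKO cold). In the m6A libraries the shares were 7.17% and 8.19%, 43.6% and 32.1%, and 8.50% and 6.60%. In footprints they were 52.7% and 31.4% (WT cold) and 30.3% and 17.3% (cKO cold). In each assay WT cold lay above the other groups with no overlap, in footprints by a narrow margin, as the plot of the Acaa1b share shows. WT cold replicate 2 had a lower Acaa1b share and more Ehhadh than replicate 1 in all 3 assays. These shares were not tested.

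**Figure D1:**
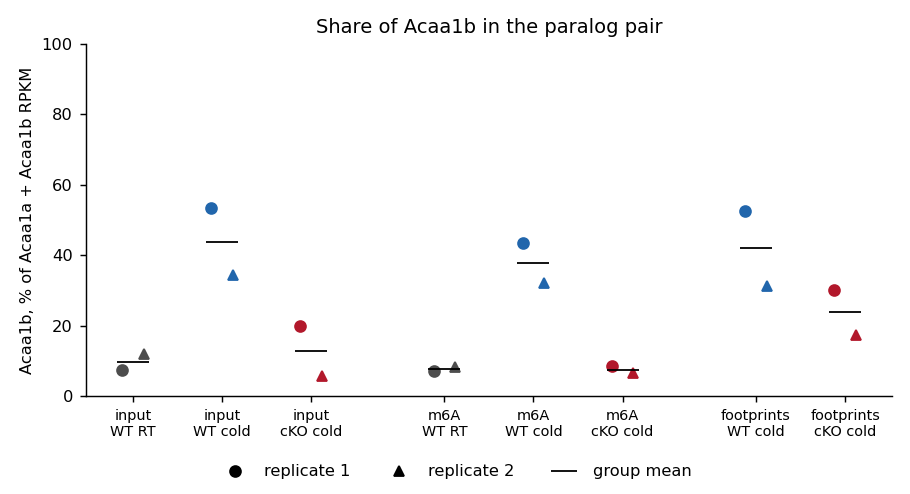
Share of Acaa1b in the summed RPKM of Acaa1a and Acaa1b (percent, y axis) in each library, by assay and group (x axis), with the mean of each group as a bar. WT cold inputs were at 53.3% and 34.3%, above WT RT (7.30% and 11.9%) and cKO cold (19.9% and 5.61%).

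Pex11a had input RPKM values of 10.2 and 13.9 (WT RT), 18.9 and 21.5 (WT cold), and 22.3 and 20.7 (cKO cold). The cold groups overlapped each other and lay above WT RT. It rose by 0.71 ± 0.18 in the cold (adjusted p = 0.0148, limma), a call lost without WT RT replicate 1 or WT cold replicate 2 (adjusted p = 0.144 and 0.0591), and its difference between cKO cold and WT cold was 0.09 ± 0.18 (adjusted p = 0.738). Crat was at 66.8 and 72.2, 153 and 136, and 74.2 and 88.0 RPKM in the same order. WT cold was the highest group and did not overlap either of the others. Crat rose by 1.04 ± 0.14 in the cold (adjusted p = 0.0011, limma) and fell by 0.83 ± 0.14 in cKO cold (adjusted p = 0.0101).

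**Figure D2:**
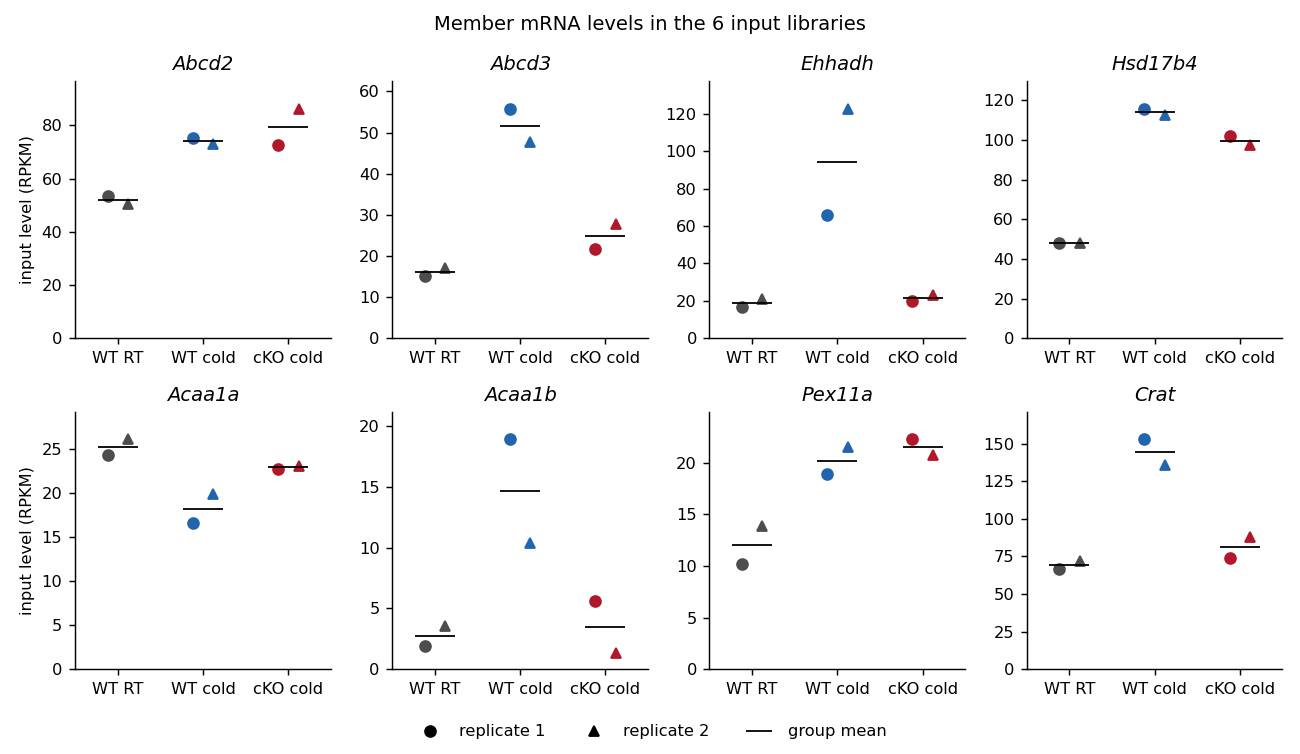
Input levels (RPKM, y axis) of the 8 genes in the 6 input libraries by group (x axis), with circles for replicate 1, triangles for replicate 2 and a bar for the mean. Ehhadh, Acaa1b, Abcd3 and Crat were highest in both WT cold libraries, while Abcd2, Hsd17b4 and Pex11a were higher than WT RT in the cold with either genotype label.

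Between cKO cold and WT cold, 4 of the 8 genes were called lower (Ehhadh, Acaa1b, Abcd3 and Crat) and 0 higher. Of all genes tested, 2.92% were called lower and 23.6% higher (370 and 2992 genes, or 852 and 756 with median-ratio scaling and 658 and 757 with quantile scaling), and the median difference over all genes was 0.40, against -0.51 over the 8 genes. Median-ratio scaling moved the median of all genes to 0.02. The other 4 (Abcd2, Acaa1a, Hsd17b4 and Pex11a) had differences between -0.19 and 0.32 on the deposited scale. With median-ratio scaling these lay between -0.69 and -0.15, and Hsd17b4 was also called, making 5 of the 8 lower. With quantile scaling they lay between -0.31 and -0.05, and 4 of the 8 were called lower. The direction of Abcd2, Acaa1a and Pex11a and the call of Hsd17b4 thus depended on the scaling. The cold and knockout comparisons share the WT cold libraries, so a high WT cold value enters both with opposite sign. Against WT RT, 4 of the 8 genes were higher in cKO cold, and 0 were lower, where 8.38% of all genes were higher and 24.7% lower (1062 and 3130 genes, or 1689 and 1970 with median-ratio scaling and 2222 and 2000 with quantile scaling). Hsd17b4 was higher by 1.03 ± 0.11 (adjusted p = 0.00112, limma), Pex11a by 0.80 ± 0.18 (0.0172), Abcd2 by 0.60 ± 0.13 (0.0151) and Abcd3 by 0.59 ± 0.17 (0.0381). Without WT RT replicate 1, WT RT replicate 2 or cKO cold replicate 2, this count fell to 1. Crat (0.22 ± 0.14), Ehhadh (0.19 ± 0.29), Acaa1b (0.13 ± 0.52) and Acaa1a (-0.13 ± 0.15) did not pass. This last comparison changes genotype label and temperature together.

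**Figure D3:**
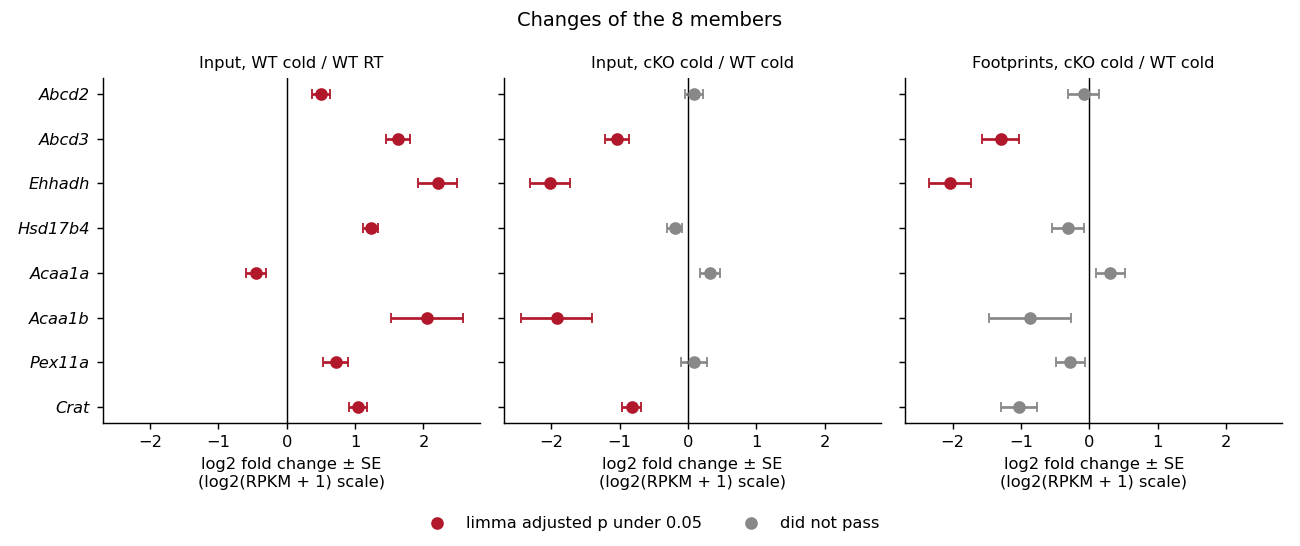
Differences (log2(RPKM + 1) scale, x axis) of the 8 genes with the SE of limma, in 3 comparisons (panels), with red points for an adjusted p under 0.05. In input, 7 genes were higher in the cold and 4 were lower in cKO cold, and in footprints Ehhadh and Abcd3 were lower in cKO cold.

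Because RPKM is scaled to length, levels can be set side by side within the input libraries. In WT RT inputs Crat was highest (69.5 ± 3.804 RPKM, SD, n = 2), then Abcd2, Hsd17b4, Acaa1a, Ehhadh, Abcd3, Pex11a and Acaa1b (2.71 ± 1.14), and in that order Ehhadh and Abcd3 were the neighbours whose libraries overlapped. In WT cold, Crat stayed first (144 ± 11.9) and Hsd17b4 (114 ± 2.27) and Ehhadh (94.4 ± 40.2) came next, overlapping each other, and the Ehhadh libraries also spanned those of Abcd2. Pex11a, Acaa1a and Acaa1b came last there, and neighbours among them overlapped. In cKO cold, Hsd17b4 was first (99.6 ± 3.27), with Crat and Abcd2 next and overlapping, while Ehhadh (21.5 ± 2.06) ranked above Acaa1b alone and overlapped Pex11a. Summed over the 8 genes, the input RPKM was 236 and 252 (WT RT), 520 and 543 (WT cold), and 341 and 367 (cKO cold).

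The m6A libraries were set against the inputs. The log2 ratio of m6A to input RPKM (each plus 1) compares a gene with the rest of its library, so it ranks enrichment and is not the fraction of methylated molecules. The same-numbered input and m6A libraries of a group deviated together, so values from the fit with the pair as a block are given where they change a call. In WT RT, Pex11a was called enriched and Hsd17b4, Abcd3 and Acaa1a were called depleted, 4 of 8 genes where 16% of 13062 genes were called higher and 34.6% lower. With the replicate block 7 of the 8 were called, 1 higher and 6 lower, where 21.3% of all genes were higher and 40.6% lower. The 3 gained were Ehhadh (-0.28 ± 0.10, adjusted p = 0.0387, limma), Abcd2 (-0.35 ± 0.13, 0.0403) and Crat (-0.19 ± 0.07, 0.0404). Without the block, the Pex11a call was lost without WT RT input replicate 1 or m6A replicate 2 (adjusted p = 0.181 and 0.183), and the Acaa1a call without any 1 of the 4 WT RT libraries (0.0872 to 0.16). In WT cold the calls were Pex11a higher and Hsd17b4 and Abcd3 lower, 3 of 8, where 13.7% of all genes were called higher and 25.6% lower. With the replicate block Crat was also lower there (-0.23, adjusted p = 0.0207, limma), making 3 lower, where 31.9% of all genes were. The unblocked Pex11a call was lost here without WT cold input replicate 1 or m6A replicate 2 (adjusted p = 0.0833 and 0.0951). In cKO cold 5 of 8 were lower (Ehhadh, Hsd17b4, Abcd3, Abcd2 and Crat) and 0 higher, where 11.4% of all genes were called higher and 35.2% lower, and with the replicate block Pex11a made 6 lower (adjusted p = 0.017), where 42.2% of all genes were. The unblocked Ehhadh call was lost without cKO cold input replicate 2 or m6A replicate 2 (adjusted p = 0.0611 and 0.059).

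Pex11a was the one gene of the 8 with ratios above 0 in all 4 WT pairs. Its m6A RPKM values were 15.8 and 21.7 (WT RT), 30.4 and 34.9 (WT cold), and 18.2 and 15.9 (cKO cold). Its log2 ratios were 0.59 and 0.61, 0.66 and 0.67, and -0.28 and -0.36, so they were positive in every WT pair and negative in both cKO pairs. Abcd2 was at 44.5 and 36.9, 65.0 and 57.8, and 29.9 and 24.02 RPKM in the m6A libraries, with ratios of -0.26 and -0.44, -0.21 and -0.33, and -1.25 and -1.80. Its input difference between the cold groups was smaller than its error, while both cKO m6A libraries lay below all 4 WT ones. Ehhadh was at 13.2 and 17.7, 58.5 and 116, and 8.88 and 8.22 RPKM in the m6A libraries, with ratios of -0.31 and -0.25, -0.17 and -0.08, and -1.09 and -1.37. Crat was at 58.0 and 63.6, 127 and 118, and 44.7 and 54.7 RPKM in the m6A libraries, with ratios of -0.20 and -0.18, -0.27 and -0.20, and -0.72 and -0.68. For both Ehhadh and Crat the cKO pairs lay below all 4 WT pairs.

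The change of the m6A to input ratio with the knockout label was tested as an interaction in the cold libraries. In the fit without pairs, 0 of the 8 genes and 0 of 13062 genes (0%) passed the adjusted threshold in limma, while 1311 genes, 4 of the 8 among them, had an unadjusted p under 0.05. All 4 had a lower ratio in cKO cold. With the replicate block these 4 were called lower, where 3.04% of all genes were. Ehhadh changed by -1.11 ± 0.14 (adjusted p = 0.0119, limma), Abcd2 by -1.26 ± 0.18 (0.0142), Pex11a by -0.99 ± 0.13 (0.0137) and Crat by -0.46 ± 0.10 (0.0469), beside a median of -0.14 over all genes. Without pairs their adjusted p was 0.465, 0.0885, 0.218 and 0.461. With the block and either median-ratio or quantile scaling 3 remained called, and Crat did not pass (-0.29 and -0.36). Leaving out any 1 of the 8 WT libraries ended all 4 blocked calls, while leaving out any 1 of the 4 cKO libraries left 3, without Crat. The libraries left out include the WT RT ones, which enter these differences only through the shared estimate of the spread.

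The other 4 genes had no call in this comparison in either fit. Abcd3, the most depleted of the 8 genes in WT, was at 5.86 and 6.34, 24.6 and 21.6, and 13.1 and 11.9 RPKM in the m6A libraries, with ratios of -1.23 and -1.29, -1.15 and -1.11, and -0.69 and -1.16. Hsd17b4 was at 22.1 and 25.3, 73.5 and 76.8, and 63.3 and 62.2 RPKM, with ratios of -1.09 and -0.91, -0.65 and -0.55, and -0.68 and -0.64. The ratio of Hsd17b4 was thus higher in both cold groups than in WT RT, and its change in WT (0.40 ± 0.15) had an unadjusted p of 0.024 and an adjusted p of 0.352 (limma). It was the 1 gene of the 8 at an unadjusted p under 0.05 in that comparison, where 0 of the 8 and 0.0612% of all genes were called, or 0 of the 8 and 2.07% of all genes with the replicate block. Acaa1a was at 18.7 and 17.7, 18.3 and 15.01, and 16.4 and 20.5 RPKM in the m6A libraries, and the ranges of its ratios overlapped across the 3 groups. Acaa1b was at 1.45 and 1.58, 14.1 and 7.09, and 1.52 and 1.45 RPKM, and its cKO ratios of -1.40 and 0.05 were too far apart to compare, with as few as 13 reads in an m6A library. The interaction values of these 4 with the knockout label were 0.20 for Abcd3, -0.06 for Hsd17b4, -0.18 for Acaa1a and -0.23 for Acaa1b.

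**Figure D4:**
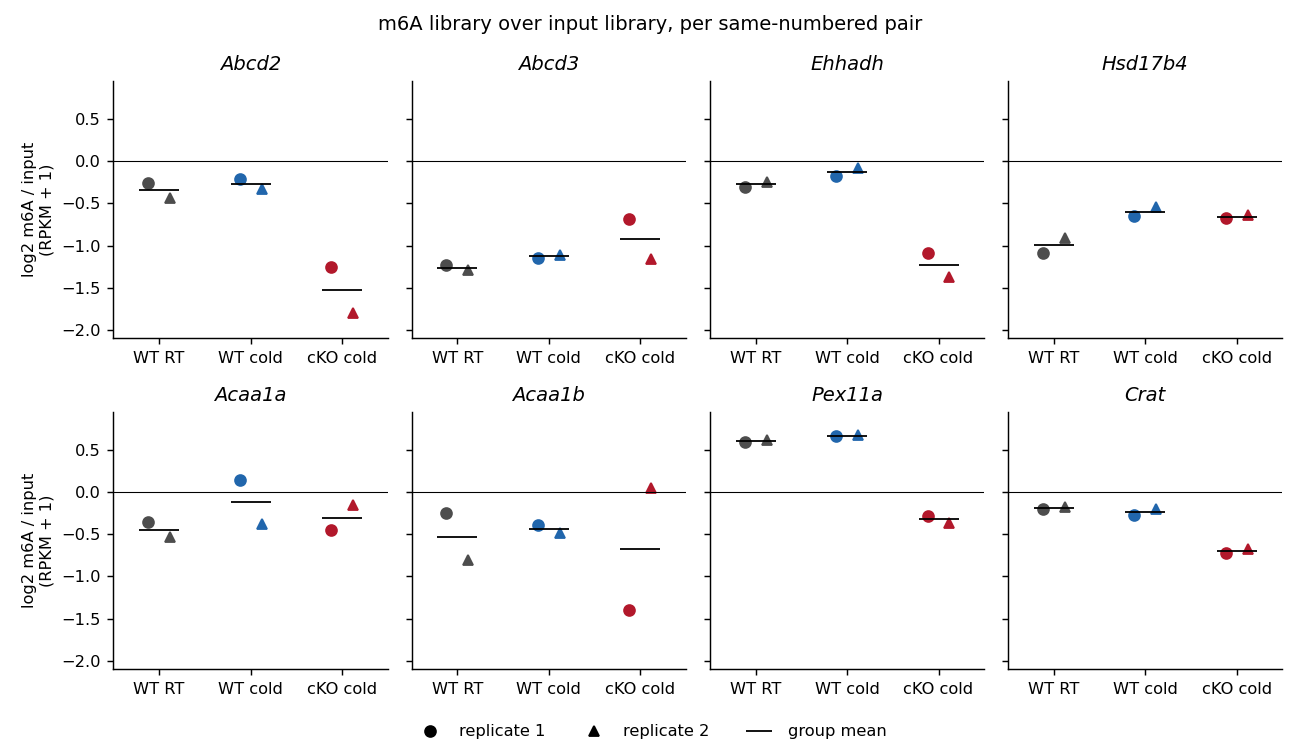
Log2 ratio of m6A to input RPKM (each plus 1, y axis) of the 8 genes per same-numbered pair, by group (x axis), with a bar for the mean. Pex11a was above 0 in the WT pairs (0.59 to 0.67) and below 0 in both cKO pairs (-0.28 and -0.36), and Abcd2, Ehhadh and Crat were lower in both cKO pairs than in every WT pair.

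Ribosome footprints were available for the cold groups. Ehhadh footprints were at 168 and 198 RPKM (WT cold) against 37.8 and 49.9 (cKO cold), and Abcd3 at 246 and 168 against 70.7 and 95.7. In both genes the groups were well apart. Ehhadh fell by 2.05 ± 0.31 (adjusted p = 0.0136, limma) and Abcd3 by 1.29 ± 0.27 (adjusted p = 0.0309), 2 of the 8 genes, where 1.54% of 12763 genes were called lower and 5.61% higher (196 and 716 genes, or 367 and 133 with median-ratio scaling and 291 and 144 with quantile scaling). The median over all genes was 0.42, or 0.02 with median-ratio scaling. Crat was at 206 and 164 against 72.5 and 111 RPKM, also with no overlap, and its difference of -1.02 ± 0.26 missed the threshold (adjusted p = 0.0504). Crat passed with median-ratio scaling (-1.51, adjusted p = 0.0187), quantile scaling (-1.36, 0.0277), the replicate block (0.0482), a fit over all 16 libraries (0.00451) and without cKO cold footprint replicate 2 (0.0402). The Ehhadh call was lost without WT cold footprint replicate 2 (adjusted p = 0.0768) or cKO cold footprint replicate 1 (0.0652). The Abcd3 call was lost with no filter (0.0561) and without any 1 of the 4 input libraries, either WT cold footprint library or cKO cold footprint replicate 1 (0.0592 to 0.122).

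As deposited, the footprint RPKM values of the other members overlapped or differed little. Hsd17b4 was at 355 and 281 RPKM (WT cold) against 225 and 288 (cKO cold), and Abcd2 at 174 and 153 against 136 and 174. Acaa1b was at 34.3 and 13.6 against 16.6 and 7.74 RPKM, with 26 to 109 reads per library. These 3 genes overlapped between the groups. Pex11a was at 42.8 and 41.2 against 33.0 and 35.9 RPKM and Acaa1a at 30.8 and 29.7 against 38.3 and 36.9. Those 2 genes did not overlap, Pex11a being lower and Acaa1a higher in cKO cold. Their differences were -0.31 for Hsd17b4, -0.08 for Abcd2, -0.87 for Acaa1b, -0.28 for Pex11a and 0.31 for Acaa1a, and none passed the test. These differences depended on the scaling. Over the 8 genes the median footprint difference was -0.59, or -1.07 with median-ratio and -1.01 with quantile scaling. Genes of the 8 that were lower at an unadjusted p under 0.05 (limma) numbered 3, 7 and 6 in that order. Those called lower numbered 2, 3 and 3. The change of footprints relative to input with the knockout label was called for 0 of the 8 genes and for 0 of all 12763 genes (0%, limma), with 0 of the 8 and 459 of all genes at an unadjusted p under 0.05. For Ehhadh the log2 ratios of footprints to input were 1.33 and 0.69 (WT cold) against 0.89 and 1.09 (cKO cold), and for Abcd3 they were 2.12 and 1.80 against 1.65 and 1.75. Ehhadh overlapped and Abcd3 was slightly lower in cKO. Abcd2 was also lower in cKO (1.20 and 1.06 against 0.90 and 1.01), as was Pex11a (1.14 and 0.90 against 0.55 and 0.76). Acaa1b was higher in cKO (0.83 and 0.36 against 1.41 and 1.88), with few reads. Acaa1a, Hsd17b4 and Crat overlapped. Footprint and input libraries differed in cell markers. The 10 T and B cell markers summed to 347 to 486 RPKM in WT cold footprints, against 1.30 to 1.48 in WT cold inputs. For cKO cold the sums were 348 to 1043 in footprints and 5.73 to 7.74 in inputs. The part of this difference in the ratios of footprints to input was not tested. In these footprints, liver markers other than Cyp2e1 (7 genes) summed to 229 RPKM in WT cold replicate 1 and to between 18.01 and 27.0 in the other 3 libraries. Of the 8 genes, 7 were higher in that library than in WT cold replicate 2, and Ehhadh was lower; the part of the liver signal was not tested.

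Other genes of the peroxisome were read from lists, given by counts. Of 22 tested further genes of peroxisomal fatty acid oxidation, 11 were higher and 3 lower in the cold, with a median of 0.64. The fatty acid transporter and very long-chain acyl-CoA synthetase Slc27a2 rose by 3.28 ± 0.37 (adjusted p = 0.0006, limma) and the acyl-CoA synthetase Acsl1 by 1.86 ± 0.25, while the branched-chain oxidase Acox3 fell by 0.81 ± 0.16. With median-ratio scaling the split was 17 higher and 0 lower, and with quantile scaling 17 and 1, so these lower calls depended on the scaling. In cKO cold against WT cold, 1 of the 22 was higher and 5 lower, among them Slc27a2 (-3.28 ± 0.37) and the alpha-oxidation lyase Hacl1 (-1.47 ± 0.26). Either other scaling gave 0 higher and 7 lower, so the higher call depended on the scaling. In footprints 0 of 25 were higher and 5 lower, with Slc27a2 at -4.38 ± 0.52. Median-ratio scaling gave 9 lower and quantile scaling 7 there, with 0 higher in each.

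Of 21 tested peroxisome biogenesis and division genes, 5 were higher and 2 lower in the cold, with Pex3 (1.14 ± 0.21), which builds the membrane, and Pex13 (1.13 ± 0.20), of the import channel, among the higher, and Pex6 (-0.80 ± 0.16) and Pex26 (-0.78 ± 0.21), which recycle the import receptor, lower. Median-ratio scaling gave 11 higher and 0 lower and quantile scaling 15 and 0, so the lower calls depended on the scaling. In cKO cold 0 of the 21 were called in either direction, or 6 lower with median-ratio scaling and 1 lower with quantile scaling. Of 10 other matrix enzymes, 6 were higher and 0 lower in the cold and 0 higher and 5 lower in cKO cold. Those lower included the epoxide hydrolase Ephx2 (-1.38 ± 0.19), the NAD-capped RNA and nucleotide hydrolase Nudt12 (-1.20 ± 0.23) and catalase, Cat (-0.87 ± 0.13). Of 5 ether lipid synthesis genes, 1 was higher and 3 lower in the cold, or 2 and 1 with median-ratio scaling and 1 and 1 with quantile scaling. In this list 2 were higher in cKO cold (the fatty acyl-CoA reductase Far1 and the plasmalogen desaturase Tmem189), a count of 0 with either other scaling.

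Of 18 mitochondrial fatty acid oxidation genes, 17 were higher and 1 lower in the cold, and 1 was higher and 14 lower in cKO cold. Cpt1b, the muscle-type carnitine palmitoyltransferase, was among them with 3.40 ± 0.26 in the cold and -3.43 ± 0.26 in cKO cold. Cpt1a went the other way, with -0.64 ± 0.18 in the cold and 0.93 ± 0.18 in cKO cold. Both other scalings gave 17 higher and 0 lower in the cold. In cKO cold, median-ratio scaling gave 0 higher and 17 lower, and quantile scaling 0 and 16, so the calls of Cpt1a depended on the scaling. In footprints 13 of the 18 were lower. Among 13 PPAR factors and coactivators, 5 were higher and 5 lower in the cold, or 5 and 1 with median-ratio scaling and 5 and 3 with quantile scaling. In cKO cold against WT cold 2 of the 13 were higher and 4 lower. The 2 higher were Rxra (0.92 ± 0.13) and Ppard (0.81 ± 0.17). These counts were 0 and 4 with median-ratio scaling and 1 and 4 with quantile scaling. Ppara, which encodes PPAR alpha, had input RPKM values of 3.97 and 3.36 (WT RT), 10.9 and 28.8 (WT cold), and 1.69 and 3.61 (cKO cold). WT cold lay above the other 4 libraries. Ppara rose by 2.01 ± 0.46 in the cold (adjusted p = 0.00912, limma) and fell by 2.42 ± 0.46 in cKO cold (adjusted p = 0.0132), with -2.43 ± 0.61 in footprints (adjusted p = 0.0474).

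**Figure D5:**
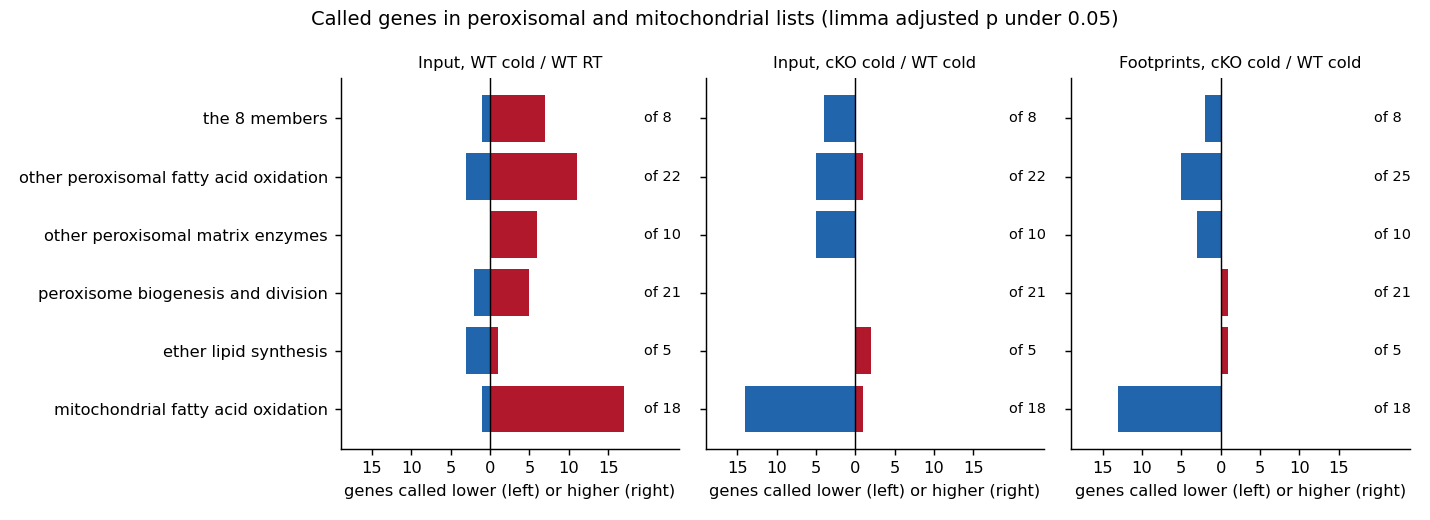
Number of genes called higher (right) or lower (left, x axis) by limma in 3 comparisons (panels) for the 8 genes and 5 other lists (y axis), with the number tested at the right of each bar. In the cold 17 of 18 mitochondrial and 11 of 22 further peroxisomal oxidation genes were higher, and in cKO cold 14 and 5 were lower.

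Over the 6 input libraries, the genes outside the 8 whose log2 level most resembled the mean standardised profile of the 8 were Hsdl2 (Pearson r = 0.994), a peroxisomal short-chain dehydrogenase, Mecr (0.994), the enoyl reductase of mitochondrial fatty acid synthesis, Uqcrq (0.993), a subunit of respiratory complex III, Mrpl42 (0.993), a mitochondrial ribosomal protein, and Adcy10 (0.993), the soluble adenylate cyclase. The points are 6 libraries of 3 groups that share depth and tissue make-up, and 143 of 12659 genes had r above 0.95, so many genes share this pattern. The median r over all genes was -0.74. Within the 8, r with the profile ran from 0.95 for Abcd3 to 0.74 for Acaa1b, and it was -0.83 for Acaa1a. Each of the 8 is part of that profile, so these values are partly built in and cannot be compared with those of other genes.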

How the data were processed

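Adipose RNA of 8 groups with 2 libraries each was given as 1 matrix of RPKM values deposited by the authors, who aligned to mm10 with HISAT2, per the submitters' processing notes; the counting tool and annotation are not given in the sources used here. The labels name a small RNA library kit for all libraries. All 16 value columns were matched to samples and 0 were left out. Of the 17883 rows, 17871 identifiers matched the gene table and 25 symbols turned into dates were restored. Reads per library were recovered from the steps between low RPKM values, which were whole within 0.001 reads (relative 3e-08 for high values). RPKM depends on the other genes of a library, so a few abundant genes can shift all others.

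Genes at 1 RPKM or more in at least 2 libraries were tested with limma 3.58.1 (R 4.3.3) on log2(RPKM + 1). This scale understates changes of low genes. The fits were also run on simulated data, where they had to recover the size of planted changes. The simulated noise was independent in each library, so that check does not cover the pairing of libraries. Input libraries, input with m6A, and input with footprints were fitted separately, with m6A and footprint changes as interactions. Pairing was checked over 8464 genes: deviations of same-numbered libraries of a condition correlated between assays with r from 0.305 to 0.656 (7 pairs), and of other pairs from -0.0994 to 0.0779 (21 pairs), so the pairing comes from the data. Alternatives were a pseudocount of 0.1, no filter, median-ratio and quantile scaling, the replicate block, 1 fit of all 16 libraries and leaving out each library. The blocked fits with another scaling, or without each library, were added after seeing the data.

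All 8 genes are named, with up to 3 called genes of largest change per direction of each other list, Mettl3, Ucp1 and Ppara, and the 5 genes of most alike pattern. The members and lists were chosen with earlier results of these data known. Python 3.11.15 and matplotlib 3.10.9 made summaries and figures.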

Additional observations from a re-analysis of the deposited data

Results flagged for a closer look

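In 4 genes the m6A to input ratio differed between the cold groups by the interaction test with the replicate block: the change was -1.11 for Ehhadh, -0.99 for Pex11a, -1.26 for Abcd2 and -0.46 for Crat, lower in 2 of 2 cKO pairs than in every WT pair. The call was made for 405 of 13062 genes in that fit and for 0 without the block, and it was lost for all 4 genes without any 1 of the 8 WT libraries.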

How the results depend on the processing

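Of 1504 single-gene values under other settings, 1410 kept their side of the threshold, 46 lost and 46 gained a call, and 2 reversed. The 2 were the cold difference of Acaa1a, 0.27 with median-ratio and 0.18 with quantile scaling. A change of direction counted as reversed only where a call was involved. The 1410 can therefore hold uncalled values that changed direction. Of the 8 genes, the number called for m6A over input in WT RT rose from 4 to 7 with the replicate block, and was 7 with the block and either other scaling (4 and 5 without it). In WT cold it rose from 3 to 5 with the block and median-ratio scaling, and for the m6A change in the cold from 0 to 1 with the block and quantile scaling. For the m6A change with the knockout label the block gave 4 against 0, and 3 with either other scaling. Footprints gave 1 against 2 with no filter. Elsewhere the block moved no such count by over 1.5 times, and in footprints it added Crat (3 called).

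Leaving out 1 library gave 4 to 8 called genes for the cold (lowest without WT RT replicate 1), 3 to 4 for cKO cold against WT cold, 1 to 4 for cKO cold against WT RT, 2 to 4 for m6A over input in WT RT (lowest without WT RT input replicate 1 or m6A replicate 2), 0 to 3 for footprints and 0 to 3 for the blocked m6A change. Over all genes the main counts were 7314, 3362 and 912 called for the cold, cKO cold and its footprints, against 3419 to 7699, 1714 to 3806 and 93 to 889 with 1 library left out. Median-ratio and quantile scaling gave 1608 and 1415 genes for cKO cold and 500 and 435 for footprints, a fit over all 16 libraries 3774 for footprints, no filter 372 and a pseudocount of 0.1 572. For cKO cold against WT RT the 4192 genes became 858 to 4900 with 1 library left out. The block gave 270 genes against 8 for the m6A change in the cold and 405 against 0 for that with the knockout label, or 125 and 121 with median-ratio and 683 and 118 with quantile scaling, and 0 to 422 and 0 to 299 without 1 library. Why the counts changed was not tested. With 2 libraries a group, and as few as 9 input reads for Acaa1b, small differences were not detectable.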
